A study of Drosophila melanogaster with 15 samples.

Results

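The yolk protein genes of Drosophila melanogaster are Yp1, Yp2 and Yp3, and they were taken as the units of the deposited transcription unit annotation that hold one of these gene names. The rule found 3 units among 15991, which hold 3 of the 17698 genes annotated. All 3 units lay on the X chromosome, as the name of the group states. That the genes are used in females was not checked here, because the annotation holds no measured value of any library. No member was lost to a filter, since none was applied.

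The series measured nascent transcription by mNET-seq, which sequences the RNA held by engaged RNA polymerase, in embryos at stage 15. The 15 libraries comprised 4 of female embryos and 4 of male embryos with maternal depletion of mof by a UAS-mof RNAi construct, and 4 of female embryos and 3 of male embryos with control RNAi. The male control libraries carried the replicate numbers 2 to 4. All groups were raised at 25 °C, and 6000 embryos entered each preparation. Neither the driver of the RNAi construct nor the target of the control RNAi is stated in the labels, and each library came from many embryos. The coverage of the libraries was not analysed here, so their depth is unknown and no comparison of MOF with control embryos, or of males with females, was made. What follows describes the yolk protein genes in the map against which such coverage is read, on genome build dm6.

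Yolk proteins are the main protein store of the fly egg. They are made in the fat body of adult females and in the follicle cells of the ovary, secreted, and taken up into the oocyte through the receptor Yolkless. The embryo then consumes them. In flies they are relatives of lipases, unlike the large vitellogenins that fill the eggs of many other egg-laying animals. Their transcription in the fat body is under the control of the sex-specific forms of Doublesex, of ecdysone and of juvenile hormone, and Yp1 and Yp2 are a textbook example of a pair of genes that share the regulatory DNA between them. The genes lie on X, the chromosome on which the MSL complex, with its acetyltransferase MOF, acts in males.

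Yp1 and Yp2 stood head to head, and Yp3 stood alone far away on the same chromosome. Yp1 (FBgn0004045, CG2985) was a plus-strand unit on X, from 10053811 to 10055498. Yp2 (FBgn0005391, CG2979) was a minus-strand unit on X, from 10050951 to 10052636. Yp3 (FBgn0004047, CG11129) was again a plus-strand unit, on X from 13759546 to 13761547. Yp1 and Yp2 were thus transcribed away from each other, and Yp3 ran in the direction of Yp1. Between the end of Yp1 and the start of Yp3 lay 3704047 bp (3.70 Mb), with 396 units wholly inside. No unit of the annotation overlapped another on the same strand (0 of 15991), and 1144 units held several genes. Each yolk protein gene had a unit of its own with 1 gene in it. The RefSeq gene table gave the same start and end for all 3 genes.

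The unit of Yp1 was 1688 bp long and that of Yp2 1686 bp, so the members of the pair differed by 2 bp. The unit of Yp3 was 2002 bp long, which was 314 bp more than Yp1, or 1.19 times its length. The 3 units together covered 5376 bp. Yp1 and Yp2 were a little shorter than the median unit, and Yp3 a little longer. The median was 1817 bp over all units, 2242 bp over the 2399 units on X and 2430 bp over the 1847 units on X that hold a single gene of the protein-coding type. In this last set, 34.1% of units were shorter than Yp1, 34.0% were shorter than Yp2 and 40.7% were shorter than Yp3. All 3 yolk protein units therefore lay below the median of comparable X units. The annotation gives no exons, so the lengths include introns.

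Each of the 3 genes had 2 transcripts in the annotation, and RefSeq listed 2 transcripts and 2 protein records for each. Among the X units with a single protein-coding gene, 27.9% had exactly 2 transcripts, 44.3% had 1 and 27.8% had 3 or more. The start of a unit is its outermost annotated start. Where the 2 transcripts of a yolk protein gene begin at different bases, the inner start is not shown by these files.

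The region between the starts holds known shared control elements of Yp1 and Yp2, which the annotation does not mark. The Yp2 start at 10052636 and the Yp1 start at 10053811 were 1175 bp apart, with 1174 bp between the units (X, 10052637 to 10053810). No unit of either strand overlapped this interval. It made up 25.8% of the 4548 bp from the Yp2 end to the Yp1 end. The starts of 542 consecutive head-to-head pairs on X had no unit between them, with a median distance of 519 bp, and 71.4% of these pairs were closer than Yp1 and Yp2. The share was 70.8% of 3035 such pairs on the autosomes, where the median was 462 bp. Among the 434 X pairs in which both units hold a protein-coding gene, the median was 435.5 bp and 77.0% were closer. Pairs whose units overlap at their starts were not counted. Among pairs with no unit between the starts, the yolk pair was thus a rather wide one. It lay outside the 48.5% of X pairs whose starts were within 500 bp.

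**Figure D1:**
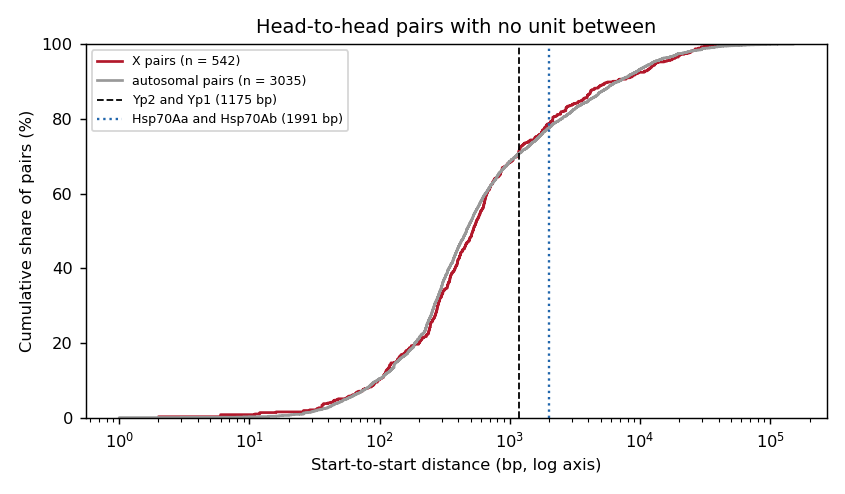
Cumulative share (%) of head-to-head pairs with no unit between their starts, against start-to-start distance (bp, log axis), for 542 pairs on X and 3035 on the autosomes. The dashed line marks Yp2 and Yp1 at 1175 bp, where both curves stand a little above 70%, and the dotted line marks Hsp70Aa and Hsp70Ab at 1991 bp.

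In order of distance the yolk pair was number 388 of the 542 pairs on X. The 3 pairs just closer were Cyp311a1 with Cyp318a1 (1167 bp), a pair of cytochrome P450 genes, CG14195 with Mur18B (1172 bp), and Muc4B with CG43134 (1174 bp), in which Muc4B is named as a mucin. The 3 pairs just wider were Vinc with CG14052 (1187 bp), CR32553 with mir-210 (1192 bp), and CycD with Lrp4 (1194 bp). Vinc encodes vinculin, a linker of cell adhesion sites to actin, and CycD encodes the G1 cyclin D. These 6 pairs had unit lengths from 100 bp (mir-210) to 10144 bp (Lrp4), so a similar spacing went with very different units.

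By the symbol rule used here, like-named partners were uncommon among head-to-head pairs. Of 2353 pairs in which each unit holds a single protein-coding gene, 55 (2.34%) had symbols that differ only in the final number and letters, such as Yp1 and Yp2. Symbols made of CG or CR and a number, and symbols without a final number, could not count as like-named. Pairs with such symbols stayed among the 2353, so the share depends on this rule. A shared symbol marks naming and is not a measure of sequence likeness. On X there were 5 such pairs of 361. Besides Yp2 with Yp1 these included c12.1 with c12.2 (136 bp between starts), the ionotropic receptor genes Ir7f with Ir7g (634 bp), and the odorant-binding protein genes Obp19c with Obp19d (649 bp). The median distance of the 55 pairs was 649 bp, and 34 were closer than the yolk pair. Their median difference in unit length was 223 bp, and of the 55 pairs Yp2 with Yp1 had the smallest, 2 bp. Hsp70Aa with Hsp70Ab (7 bp), Cpr76Ba with Cpr76Bb (10 bp) and Tep2 with Tep3 (11 bp) came next. Hsp70Aa and Hsp70Ab encode heat shock chaperones, Cpr76Ba and Cpr76Bb cuticle proteins, and Tep2 and Tep3 thioester proteins of the immune system. These pairs were chosen after their values were seen.

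**Figure D2:**
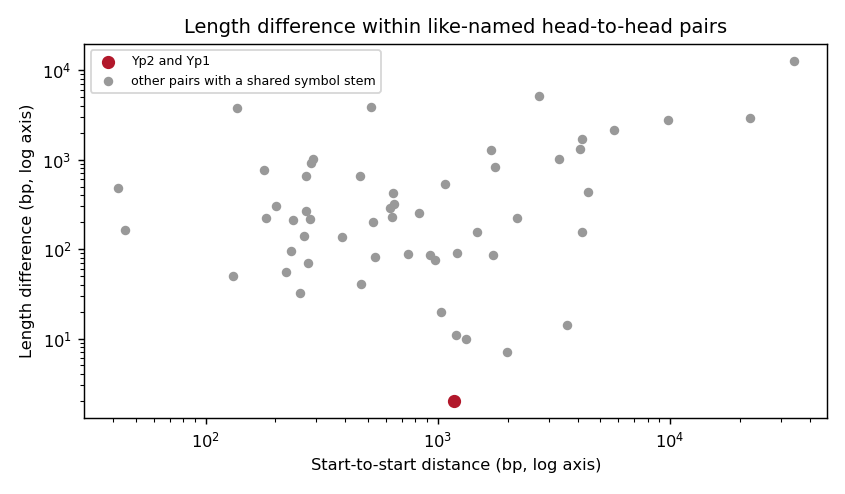
Difference in unit length (bp, log axis) against start-to-start distance (bp, log axis) for the 55 head-to-head pairs with a shared symbol stem. The red point is Yp2 with Yp1, at 1175 bp and a length difference of 2 bp, below all grey points.

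On both outer sides the yolk pair met the end of another coding unit within 147 bp. Downstream of Yp2 lay Cht6, a chitinase gene on the plus strand (10016845 to 10050803, 33959 bp, 7 transcripts), and 147 bp separated the 2 ends. Downstream of Yp1 lay CG15312 on the minus strand (10055629 to 10070868, 15240 bp, 6 transcripts), and 130 bp separated the 2 ends. Both flanks were thus tail to tail, with no overlap. The median gap of the 401 tail-to-tail pairs on X with no unit between their ends was 217 bp. Of them, 36.4% were closer than Yp1 with CG15312 and 41.1% closer than Yp2 with Cht6. Convergent units whose ends overlap are not among the 401, so these shares hold for pairs with separate ends only. Of the 542 head-to-head pairs on X, 27 (4.98%) had both of their ends within 147 bp of a facing end. This limit was unplanned and is the Yp2 gap itself, so the yolk pair was included by construction. Within 500 bp the count was 51 (9.41%). Past this short gap, the DNA downstream of Yp1 and of Yp2 belongs to a convergent unit on the other strand.

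**Figure D3:**
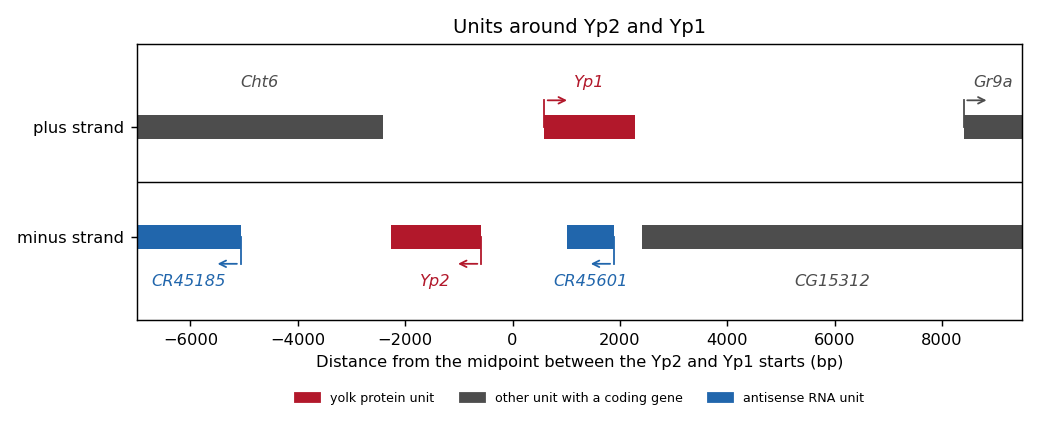
Units on the plus strand (top) and minus strand (bottom) around the yolk pair, against distance from the midpoint of the Yp2 and Yp1 starts (bp). Boxes are units, arrows are unit starts, and units that reach the border go on beyond it. Yp2 and Yp1 point away from each other, their ends stand 147 bp and 130 bp from Cht6 and CG15312, and CR45601 lies inside Yp1 on the other strand.

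Yp1 differed from the other yolk protein genes in holding an antisense unit. CR45601 (FBgn0267161, asRNA:CR45601 in RefSeq), a non-coding RNA gene of 875 bp with 1 transcript, lay wholly inside Yp1 on the other strand (X, 10054235 to 10055109). It covered 51.8% of Yp1. Its own start lay 389 bp before the end of Yp1, and its end 424 bp after the start of Yp1, so that it stopped short of the region between Yp1 and Yp2. Toward the other side, 519 bp separated its start from the end of CG15312. Yp2 and Yp3 had no overlap with any unit of the opposite strand. Among the 1847 X units with a single protein-coding gene, 114 (6.17%) held an opposite-strand unit of any type wholly inside, and 28 (1.52%) held one of the antisense RNA type. The longest antisense unit covered a larger share of its host than in Yp1 in 5 of the 28, and a smaller share in 22, with a median of 19.9%. Any overlap with the opposite strand was found for 37.4% of these 1847 units. The sample descriptions mention tracks of coverage summed over both strands, which were not used here. In values summed over strands, RNA from Yp1 and from CR45601 cannot be told apart over the 875 bp they share, whereas 48.2% of Yp1 and all of Yp2 and Yp3 are free of an annotated opposite unit.

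Within 10 kb the yolk pair had further neighbours on both sides. On the minus strand, CR45185, an antisense RNA unit inside Cht6 (10044909 to 10048156, 3248 bp), lay 2794 bp downstream of Yp2. On the plus strand, the gustatory receptor gene Gr9a (10061627 to 10062785, 1159 bp) began 6129 bp after the end of Yp1, inside the span of CG15312. Yp1 and Yp2 each had 6 units within 10 kb, their partner included. The median for units on X was 5, with a range of 0 to 20, and 58.7% of X units had fewer than 6.

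Yp3 stood in a row of units on its own strand. Upstream, Rtc1, named for RNA 3′-terminal phosphate cyclase (13757179 to 13758598, 1420 bp, 1 transcript), ended 947 bp before the Yp3 unit. Downstream, rdgB, which encodes a phosphatidylinositol transfer protein of the photoreceptor (13762752 to 13779488, 16737 bp, 11 transcripts), began 1204 bp after it. Both neighbours lay on the plus strand, and no unit overlapped Yp3. Such a place, with a same-strand unit on each side and no overlap, was held by 284 of the 1847 X units with a single protein-coding gene (15.4%). The place of Yp1 and Yp2, with an opposite-strand unit on each side, was held by 431 (23.3%).

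The unit start of Yp3 had no head-to-head partner. The nearest opposite-strand units were CG32625 (13756164 to 13756826, 663 bp), 2719 bp upstream, and CtsB1, a cathepsin B protease gene now named CtsB (13779847 to 13782170, 2324 bp), 18299 bp downstream beyond rdgB. Of the 2399 units on X, 80.2% had an opposite-strand unit closer than Yp3 did. For Yp2 this share was 54.5%, through Cht6, and Yp1 overlapped an opposite-strand unit. Farther upstream of Yp3 lay CR43833, an antisense RNA unit (13755322 to 13756013, 692 bp) at 3532 bp, and Pdcd4 (13745577 to 13755406, 9830 bp), named for programmed cell death protein 4, at 4139 bp. With Rtc1, rdgB and CG32625 these made 5 units within 10 kb.

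**Figure D4:**
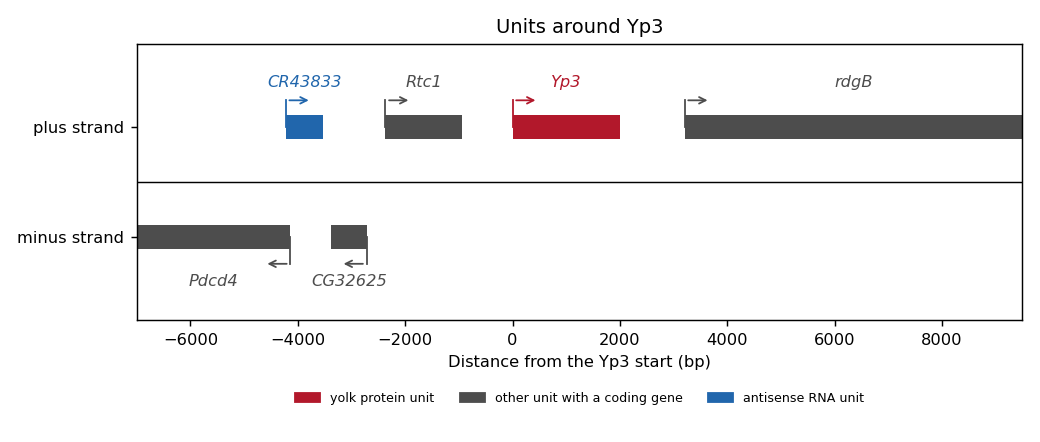
Units on the plus strand (top) and minus strand (bottom) around Yp3, against distance from the Yp3 start (bp). Boxes are units, arrows are unit starts, and units that reach the border go on beyond it. Yp3 stands between Rtc1 (gap 947 bp) and rdgB (gap 1204 bp) on the plus strand, with nothing opposite it and the nearest minus-strand unit, CG32625, 2719 bp away.

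The space around the units differed in form between the pair and Yp3. Upstream of the start there were 1174 bp free of units at Yp1 and at Yp2 alike, since they share this space, and 947 bp at Yp3. For the background, a gap was measured to the nearest unit that does not overlap, and overlapping units were passed over. Of the X units with a single protein-coding gene, 62.6% had no overlap. For the others the gap need not be free of units. The median upstream gap of this background was 592 bp. A smaller one than Yp1 and Yp2 was held by 64.4% of its units, and a smaller one than Yp3 by 60.6%. Downstream of the end there were 130 bp at Yp1, 147 bp at Yp2 and 1204 bp at Yp3. The median downstream gap was 842 bp, and 17.2%, 19.9% and 55.7% of units had a smaller one than Yp1, Yp2 and Yp3. By this measure all 3 members had a longer gap than the median before the start, and only Yp3 had a longer one after the end.

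The chorion genes, which encode eggshell proteins of the same follicle cells, were arranged otherwise. All 9 listed chorion genes ran on the plus strand of their clusters on X (5 genes) and 3L (4 genes), and none faced another chorion gene head to head. All 5 on X were overlapped over their whole length by an opposite-strand unit, and none of the 4 on 3L was. Their median unit length was 1204 bp, with 1204 to 2235 bp for the 5 on X and 586 to 823 bp for the 4 on 3L. Cp7Fa (2200 bp) and Cp7Fb (2235 bp) on X were thus longer than all 3 yolk protein units. Of the 9 chorion genes, 7 had 1 transcript, whereas each yolk protein gene had 2. Among the 6 genes of the heat shock chaperone Hsp70, Hsp70Aa and Hsp70Ab on 3R stood head to head at 1991 bp with no unit between. These 2 units were 2382 bp and 2375 bp long. The other 4 Hsp70 genes had no head-to-head partner of their own family. All 6 had 1 transcript. With 3, 9 and 6 members of a single annotation, these differences were not tested.

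Genes that act on or with the yolk proteins were listed as 19 genes, and most of their units were longer than those of the yolk protein genes. Of the 19, 5 lay on X (26.3%) and 14 on autosomes, beside 15.0% on X among all units. The list's median unit length was 6745 bp, against 1817 bp over all units. Of the 19 units, 16 were longer than Yp3 (84.2%, beside 46.3% of all units). This background also counts units that lack a protein-coding gene. With such units left out, the background median rose to 2241 bp. The share of the background shorter than Yp3 then fell from 53.7% to 45.5%. The contrast in length with the list was thus smaller on the coding background. A single gene was held by 12 of the 19 (63.2%, beside 92.8% of all units), and the length given for a joint unit is that of the whole unit. No test was made of this list, and its members were picked from general knowledge.

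Of 5 genes of uptake and lipid carriage, 1 lay on X. This was yl, which encodes the receptor Yolkless (14193214 to 14199958, 6745 bp in a joint unit with mir-4917), and it was the listed gene nearest to a yolk protein gene, with its start 0.434 Mb from that of Yp3 and 4.14 Mb from that of Yp1. CG13403 began 1196 bp away from it on the opposite strand, head to head, which is close to the 1175 bp of the yolk pair. The others were cv-d (9116 bp, 3R), which encodes a vitellogenin-like lipoprotein, apolpp (16305 bp, chromosome 4), the lipophorin precursor, Mtp (3783 bp, 2L), the microsomal triglyceride transfer protein, and Apoltp (21848 bp, 2L), a lipid transfer particle protein.

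Of 6 sex determination genes, Sxl alone lay on X, 2.96 Mb from Yp1 (23504 bp in a joint unit with mir-4956). The gene dsx (43086 bp, 3R) encodes the factor that binds the yolk protein enhancer in its male and female forms. The other autosomal units were those of her (2507 bp, with mir-2497), a zinc finger gene, tra2 (2334 bp, with a scaRNA gene) and tra (992 bp), the splicing regulators that set the form of Doublesex, and ix (727 bp), a partner of female Doublesex. The units of tra and ix were shorter than those of Yp1 and Yp2.

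Of 5 hormone genes, 3 lay on X. Met, a juvenile hormone receptor (11616124 to 11621280, 5157 bp), lay between the yolk pair and Yp3, at 1.56 Mb from Yp1 and 2.14 Mb from Yp3. Its paralogue gce (21309 bp) lay 1.54 Mb from Yp3 on the far side, and usp, a partner of the ecdysone receptor (18490 bp in a joint unit with Actn and mir-4954), lay 8.01 Mb from Yp1. On the autosomes, EcR, the ecdysone receptor, had the longest of the 19 units (81215 bp, 7 genes), and jhamt, an enzyme of juvenile hormone synthesis, measured 1137 bp. The remaining factors were the GATA factor gene srp (17930 bp with CR44133), Aef1 (5218 bp), which encodes a repressor known at the Yp1 enhancer, and slbo (2786 bp), a C/EBP gene of follicle cells.

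**Figure D5:**
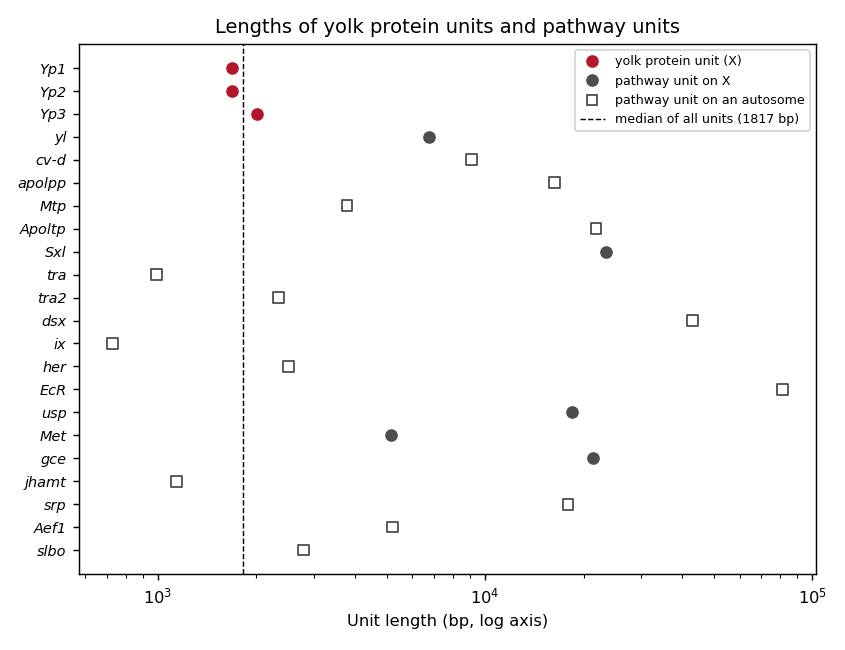
Unit length (bp, log axis) of the 3 yolk protein units (red) and of the 19 pathway units, with filled circles for X and open squares for autosomes. The dashed line is the median of all units, 1817 bp. The yolk units at 1686 to 2002 bp sit beside this line, and 16 of the 19 pathway units lie to the right of Yp3.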

How the data were processed

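The authors' deposited annotation gives each transcription unit as a chromosome, start, end and strand in bp, with its length, gene names, FlyBase identifiers and transcript identifiers. Per the file headers it was written with rtracklayer 1.48.0, and per the submitters' processing notes the build is dm6. Exons were not part of it, and neither the annotation release nor the rule for joining genes is stated there. Genes were matched on chromosome to the RefSeq table of Release 6 plus ISO1 MT by symbol, CG number or synonym, which placed 17647 of 17698 genes (99.7%).

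Starts were sorted along each chromosome. A head-to-head pair is a minus-strand start followed by a plus-strand start, and a tail-to-tail pair is the same for facing ends. Units that overlap at their facing starts or ends therefore form no such pair. An overlap was at least 1 bp, gaps count the bases between units, and neighbours were taken within 10 kb. The geometry was checked on a simulated annotation with known answers (Python 3.11.15, pandas 2.3.3, numpy 2.4.6, scipy 1.17.1).

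Named were the members, all units within 10 kb and the nearest on each side and strand, the pathway list, and the 3 X pairs on each side of the yolk pair in distance. The members and lists were chosen with earlier results of these data known. Units of a single annotation are not replicates, so shares are descriptions and no test was made. Planned results on protein identity, paralogues and promoter motifs need sequence that was not used here.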

Additional observations from a re-analysis of the deposited data

How the results depend on the processing

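Unit lengths and the distance between Yp1 and Yp2 were the same in RefSeq coordinates. The overlaps of Yp1 (875 bp), Yp2 (0 bp) and Yp3 (0 bp) could not change between limits of 1 bp and 100 bp. Among X units with a single protein-coding gene, the share with an opposite-strand overlap moved from 37.4% to 28.7%. When only units with a protein-coding gene were paired, 69.9% of pairs were closer than Yp1 and Yp2, against 70.6% with all units. With other units allowed between the starts, the share fell to 61.0% of 4467 pairs, and the median distance was 638 bp. The share of units shorter than a member moved with the background. For Yp1 it was 47.1% of all units, 38.1% of units with a protein-coding gene, 39.8% of X units and 50.01% of units with 1 gene. For Yp2 the shares were 47.0%, 38.0%, 39.7% and 49.9%, and for Yp3 they were 53.7%, 45.5%, 45.7% and 56.9%, in the same order. Yp3 thus lay above the median of all units and below the median of units with a protein-coding gene, and Yp1 stood at the middle among units with 1 gene. Within 50 kb there were 14 units at Yp1, 14 at Yp2 and 19 at Yp3, and within 5 kb 4, 5 and 5. In alternatives chosen after seeing the data, 51 head-to-head pairs on X had both ends within 500 bp of a facing end, against 27 within 147 bp, and a shared symbol stem was found in 1.39% of pairs on X and 2.18% of pairs with starts within 2000 bp, against 2.34% at any distance. The alternatives for protein identity, paralogues and promoter motifs were not run, as no sequence was used. No paired analysis was possible because the annotation holds no values of the libraries.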
